A study of Arabidopsis thaliana with 24 samples.

Results

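In control plants, 18 genes of Arabidopsis thaliana stood at least 3 log2 units, or 8-fold, higher in the petiole base than in the leaf tip, and their group means moved by at most 0.7 log2 units, or 1.62-fold, when far-red light was added. The members were chosen from 16746 probe sets that the array annotation assigns to a single gene. The rule used the means of 6 of the 8 groups: the petiole base had to exceed the leaf tip by at least 3 in the Control arrays, and the Local FR and Whole FR means had to lie between -0.7 and 0.7 of the Control mean in both tissues. Of the 74 probe sets that met the tissue condition, 19 (25.7%) met all 4 treatment conditions, and 1 of these, the beta-glucosidase gene PYK10, was left out by name. The treatment conditions alone were met by 14337 probe sets (85.6%). These shares follow from the rule and are given as a description.

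The study exposed plants to additional far-red light, which lowers the red to far-red ratio (R:FR) as neighbouring leaves do, and profiled opposite ends of a leaf. All plants were 28 days old, had grown in 9 h days at 20°C and stood in light of 140 µmol per m2 per s. Control plants stayed in white light with an R:FR of 2.3. In the Local FR group the R:FR was 0.05 at the leaf tip alone, in the Whole FR group it was 0.05 over the whole rosette, and Touch plants kept the Control light and received a touch treatment that the labels do not describe further. After 5 h of treatment, samples were cut: a lamina tip piece of 2.5 mm and a petiole base piece of 1.5 mm, both from the fifth-youngest leaf. Each combination of treatment and tissue had 3 arrays, described as independent biological replicates, 24 in all. The genotype, and whether an RNA sample pooled plants, are not given in the sources used here.

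In a growing Arabidopsis leaf the tip matures first, and cell division and expansion last longest towards the base. The petiole is rich in vascular and supporting tissue, and its growth and bending carry much of the shade avoidance response, in which phytochromes sense a low R:FR.

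Arrays of the same group correlated at 0.969 to 0.981 (Pearson, over all 38408 probe sets). All 4 measured genes of a photosystem and carbon fixation list were lower in the Control petiole base, among them LHCB4.2 at -1.12, LHB1B2 at -0.82 and the Rubisco activase gene RCA at -0.78. The mitotic kinase genes AUR1 and AUR2 were higher there, by 2.74 and 1.81. Of 172 loci on 12 marker lists, 23 had a named probe set and none was a member. Of 6 measured anthocyanin and flavonoid genes, 4 were at least 3 higher in the Control base, among them DFR at 7.90 and AT5MAT at 6.61, but their base means under Whole FR were 3 or more below Control (DFR at -4.23, UF3GT at -4.20, AT5MAT at -3.35 and AT4G14090 at -3.17). The ER body gene NAI2, at 6.23, missed the window by its Whole FR base mean of -0.87. The lists for phloem and cambium, endodermis and suberin, aquaporins and polar auxin transport had 0 measured genes, so the 18 genes could not be set beside markers of those cells. The tissue pieces are mixtures, so more cells of a type and more RNA per cell cannot be told apart for any value given here.

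Only 4 of the 18 carry a gene symbol: the cell wall genes GH9B8 and GH9B13, the transcription factor gene JKD and the cell division gene BUB3.2. The other 14 are known here by locus name, and no function is given for them. The members lie on all 5 chromosomes, with 5 on chromosome 1, 3 each on chromosomes 2, 3 and 4, and 4 on chromosome 5. No member has another single-gene probe set on the array. Group means in the Control petiole base ran from 5.21 to 9.58 on the log2 scale, where the median of all 38408 probe sets was 3.02. In the Control leaf tip 11 of the 18 had a mean under 2, and 13 were below 2.91, the median of all 38408 probe sets there. Values of different probe sets are not levels on a common scale, and a difference from a very dim tip signal can be understated.

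**Figure D1:**
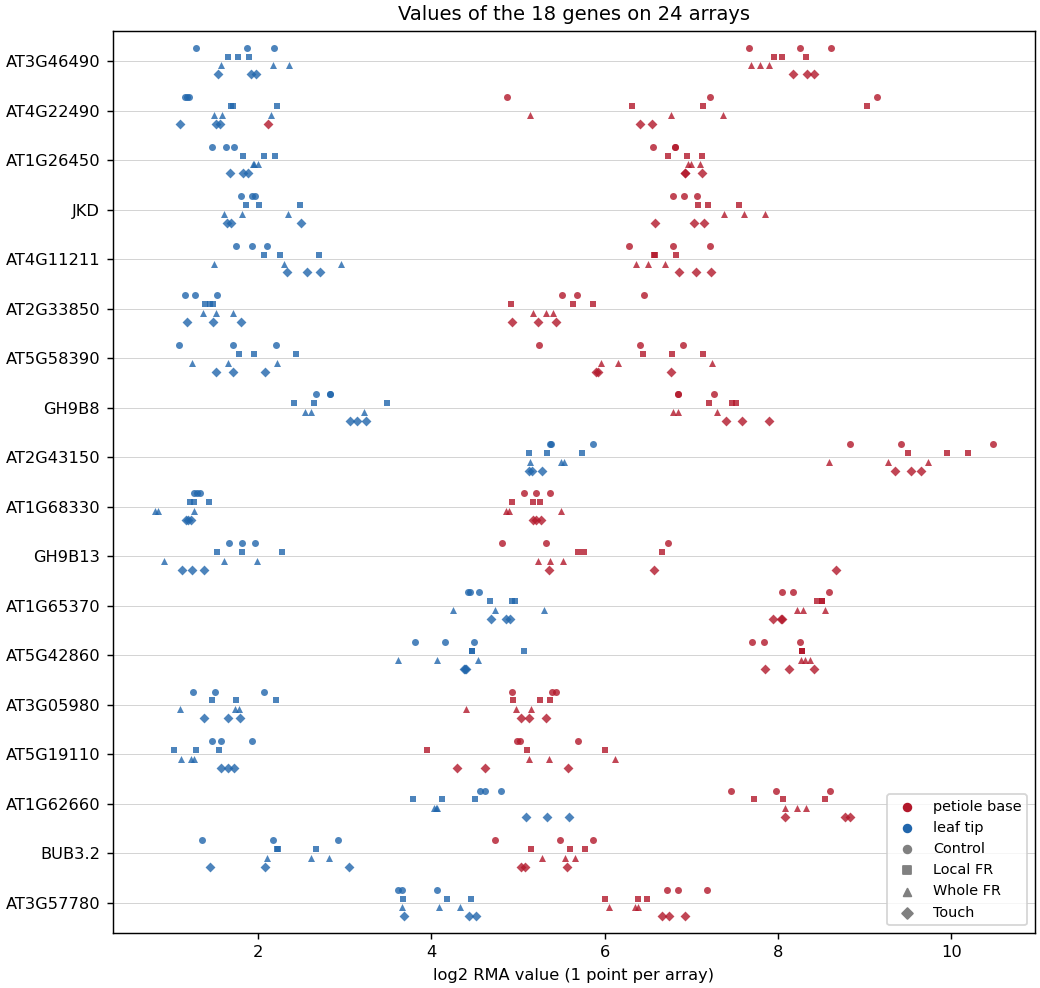
Log2 RMA values of the 18 genes, 1 point per array, with red for petiole base, blue for leaf tip and a symbol for each treatment. In 17 genes every base array lies above every tip array, and in AT4G22490 a Touch base array at 2.11 falls among the tip arrays. The rule used 18 of these 24 arrays, so the separation follows largely from the selection. Its share among all probe sets was not counted.

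GH9B8 and GH9B13 encode class B enzymes of glycosyl hydrolase family 9, whose characterised plant members are endo-1,4-beta-glucanases acting on cell wall glucans. GH9B8 read 6.85, 7.27 and 6.85 in the Control petiole base and 2.67, 2.83 and 2.84 in the Control leaf tip, a difference of 4.21. In Touch plants it read 7.59, 7.89 and 7.40 in the base and 3.14, 3.24 and 3.07 in the tip. Every Touch array of GH9B8 was above every Control array of the same tissue, by 0.64 on average in the base and 0.37 in the tip. GH9B13 read 4.82, 5.32 and 6.73 in the Control petiole base and 1.81, 1.97 and 1.66 in the Control leaf tip, a difference of 3.81. In Touch plants GH9B13 read 5.36, 6.58 and 8.67 in the base and 1.12, 1.24 and 1.38 in the tip. Its base arrays overlapped between Touch and Control, while its tip arrays were all lower in Touch.

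JKD (JACKDAW) encodes a zinc finger protein of the INDETERMINATE DOMAIN family, known in the Arabidopsis root for its part in cell fate and division of the ground tissue. It read 6.92, 6.79 and 7.06 in the Control petiole base and 1.80, 1.97 and 1.93 in the Control leaf tip, a difference of 5.02. In Touch plants it read 7.03, 6.58 and 7.15 in the base and 1.69, 2.50 and 1.64 in the tip, overlapping Control in both tissues. Under Whole FR the base arrays of JKD were 7.61, 7.38 and 7.85. All 3 lay above the Control arrays, and their mean difference of 0.69 sits at the edge of the selection window. IDD16, the other measured gene named for the family, was 1.69 higher in the Control petiole base.

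BUB3.2 encodes a homologue of BUB3, a protein of the spindle checkpoint that holds back chromosome separation in mitosis. It read 4.74, 5.49 and 5.87 in the Control petiole base and 2.93, 1.35 and 2.17 in the Control leaf tip, a difference of 3.22. In Touch plants it read 5.08, 5.04 and 5.56 in the base and 1.45, 2.08 and 3.06 in the tip. The tissues did not overlap, and Touch and Control overlapped in both.

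Among the locus-named members, AT3G46490 had the widest tissue difference, 6.40 in Control plants. It read 8.25, 8.62 and 7.67 in the Control petiole base and 1.29, 2.18 and 1.87 in the Control leaf tip. AT1G26450, with a difference of 5.12, was the least variable of the 18 in the base, with a pooled within-group SD of 0.14. Its 12 base arrays ran from 6.56 to 7.13 and its 12 tip arrays from 1.47 to 2.19. AT1G68330 was similarly narrow, from 4.86 to 5.50 in the base and from 0.81 to 1.44 in the tip. Both genes kept a wide empty band between the tissues in every treatment.

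AT2G43150 had base arrays from 8.59 to 10.48 and tip arrays from 5.13 to 5.87. AT5G42860 ran from 7.71 to 8.41 in the base and from 3.62 to 5.07 in the tip. AT1G65370 ran from 7.94 to 8.59 in the base and from 4.25 to 5.30 in the tip. These 3 genes, with AT1G62660 and AT3G57780, were the members whose Control tip mean stood above the median of all probe sets there. AT4G11211 ran from 6.28 to 7.23 in the base and from 1.50 to 2.95 in the tip. AT3G05980 ran from 4.40 to 5.44 in the base and from 1.10 to 2.21 in the tip. AT5G58390 and AT5G19110 spread more in the base, from 5.24 to 7.24 and from 3.95 to 6.12, and neither approached its own tip arrays.

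The far-red values chose the members and are given without a test. Over the 18 genes the median change in the petiole base was 0.18 under Local FR and -0.07 under Whole FR, and in the leaf tip 0.21 and 0.03. A mean inside the window did not always mean overlapping arrays. AT3G57780 read 7.18, 6.85 and 6.72 in the Control petiole base, at most 6.49 under Local FR, and 6.35, 6.05 and 6.38 under Whole FR, lower on all far-red arrays. AT1G62660 read 4.62, 4.56 and 4.80 in the Control leaf tip and 4.07, 4.05 and 4.04 under Whole FR, lower on all 3. AT1G26450 read 1.95, 2.01 and 1.95 in the tip under Whole FR, above the Control tip values of 1.47, 1.63 and 1.72. Stability under far-red light here describes the size of the mean change and not its absence. The base minus tip difference was at least 3 in 17 of the 18 under Local FR and in 16 under Whole FR. The exceptions were AT3G57780 in both and BUB3.2, at 2.98, under Whole FR. The rule held each far-red mean within 0.7 of Control in both tissues, so these counts follow largely from the selection.

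At the tissue threshold the members just inside were AT3G57780 at 3.14, BUB3.2 at 3.22 and AT1G62660 at 3.35, and the genes just outside were AT1G76780 at 2.97, AT1G21740 at 2.82 and AT2G39850 at 2.82. At the treatment window the members nearest the edge were AT4G22490 at 0.69 (Local FR, tip), JKD at 0.69 (Whole FR, base) and AT3G57780 at -0.65 (Whole FR, base). The nearest base-high genes outside were AT5G15780 at 0.73, AT2G34190 at -0.76 and the tubulin gene TUB1 at 0.78, all by Whole FR in the base.

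The Touch arrays took no part in choosing the members, so the tissue difference was tested between the Touch group means. The spread was estimated over all 24 arrays, 18 of which the rule used. In the Touch base the SD was 1.68 for GH9B13 and 2.52 for AT4G22490, above their shared SD of 0.66 and 1.17. For these genes the SE therefore does not measure the spread within Touch. All 18 genes were higher in the Touch petiole base than in the Touch leaf tip at an adjusted p under 0.05 (limma, Benjamini-Hochberg over 17504 probe sets with a gene), where 13.3% of all probe sets were called higher. On all 3 base arrays the value exceeded all 3 tip arrays in 18 of 18, against 19.3% of all probe sets. The difference was at least 3 and called in 17 of 18, against 0.44% of all. The median over the 18 was 3.88 in Touch plants, beside 3.98 in Control, 4.10 under Local FR and 4.17 under Whole FR, and the Touch median over all single-gene probe sets was -0.05.

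AT3G46490 again had the widest difference, 6.50 (SE 0.23, adjusted p = 3.59e-15 by limma). GH9B13 followed at 5.63 (SE 0.54, adjusted p = 4.82e-08 by limma), AT1G26450 at 5.20 (SE 0.13) and JKD at 4.98 (SE 0.23). The cell wall gene GH9B8 differed by 4.48 (SE 0.23) and the BUB3 homologue gene BUB3.2 by 3.03 (SE 0.37). AT3G57780 was the exception to the threshold of 3, at 2.56 (SE 0.23, adjusted p = 1.34e-08 by limma). It was also the member with the smallest difference in Control plants. The difference was smaller in Touch than in Control plants for 12 of the 18 and larger for 6. The rule selected for a high Control difference, so these counts do not measure an effect of Touch.

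AT4G22490 was the least certain. It differed by 3.63 in Touch plants (SE 0.95, adjusted p = 0.00625 by limma), with base arrays at 6.41, 2.11 and 6.55 and tip arrays at 1.51, 1.10 and 1.57. Without Touch petiole base replicate 3 it differed by 2.87 with an adjusted p of 0.0512 by limma, and 17 of the 18 were called. Among the 56 other probe sets at least 3 higher in the Control base, PYK10 included, 52 were called higher in Touch plants and 42 differed by at least 3. Whether that share differs from the members' share was not tested.

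**Figure D2:**
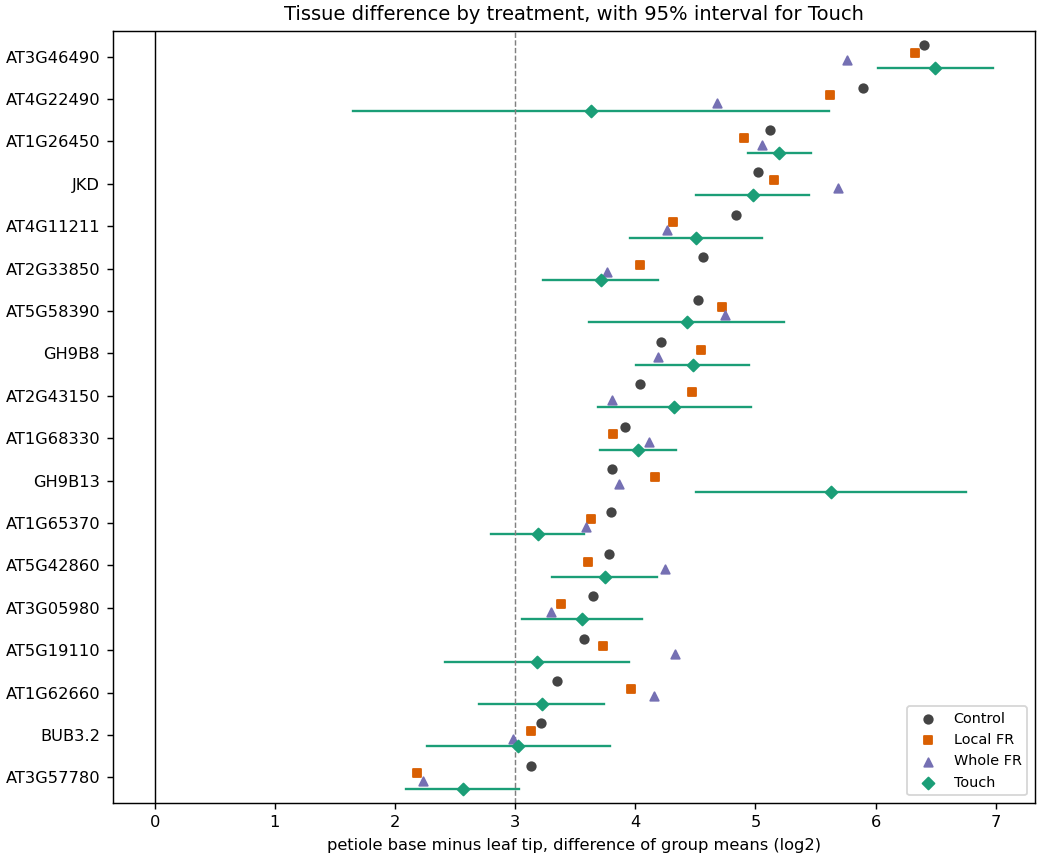
Petiole base minus leaf tip in each treatment (difference of group means, log2) for the 18 genes, with the 95% interval of the Touch difference as a bar and the selection threshold of 3 dashed. The Touch difference lies above 3 in 17 genes and at 2.56 in AT3G57780, and AT4G22490 has the widest interval.

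Touch itself was then compared with Control in each tissue. This comparison shares the Control arrays with the rule, so it is not fully independent of the choice of members. In the petiole base 0 of the 18 were called by limma, against 0.211% of all probe sets, and at an unadjusted p under 0.05 there were 6 of 18, against 10.8%. In the leaf tip 0 of the 18 were called by limma, against 0.246%, and 2 of 18 reached an unadjusted p under 0.05, against 9.34%. The members' median change was -0.00 in the base and 0.14 in the tip, and over all single-gene probe sets it was -0.01 and -0.02.

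In the base 16 of the 18 stayed within 0.7 of Control, as did 97.7% of all single-gene probe sets and 43 of the 56 other base-high probe sets (76.8%). In the tip all 18 stayed within 0.7, as did 98.5% of all and 51 of the 56. For 11 of the 18 the Control tip mean was under 2, near the low end of the scale, which limits changes there. In the base the members' share (88.9%) was thus below that of all single-gene probe sets and above that of the other base-high ones, and neither difference was tested.

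The exceptions in the base were AT4G22490, at -2.05 (SE 0.95, adjusted p = 0.433 by limma), and GH9B13, at 1.25 (SE 0.54, adjusted p = 0.379 by limma). Neither passed the test, and the arrays of both genes overlapped between Touch and Control. By replicate number, each Touch array was below its Control array for AT4G22490 and above it for GH9B13. Neither gene was called with the replicate block. AT2G33850 read 5.51, 5.68 and 6.46 in the Control base and 5.44, 5.24 and 4.94 in the Touch base, lower on every Touch array, at -0.68 (SE 0.23, adjusted p = 0.223 by limma). GH9B8, at 0.64 (SE 0.23, adjusted p = 0.249 by limma), and AT1G26450, at 0.27, were higher on every Touch base array. That made 2 of 18 with all Touch base arrays above Control, against 7.29% of all probe sets, and 1 of 18 below, against 7.46%.

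In the tip AT1G62660 read 5.33, 5.59 and 5.10 in Touch plants, at 0.68 above Control (SE 0.25, adjusted p = 0.364 by limma). AT4G11211 read 2.57, 2.33 and 2.71, against 1.74, 2.10 and 1.93 in Control, at 0.61 (SE 0.26, adjusted p = 0.463 by limma). GH9B8 and AT1G65370 were the other members with all Touch tip arrays above Control, 4 of 18 against 5.7% of all probe sets. GH9B13, AT2G43150 and AT1G68330 were below on all 3, 3 of 18 against 6.81% of all probe sets. GH9B13 and AT1G68330 read under 2 on every Control and Touch tip array, near the low end of the scale. None of these passed the adjusted test.

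The difference between the Touch effect in the base and in the tip was called for 0 of the 18 by limma, where 0% of all probe sets were called. At an unadjusted p under 0.05 there were 3 of 18, against 8.61%: GH9B13 at 1.82, AT2G33850 at -0.85 and AT1G65370 at -0.61.

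**Figure D3:**
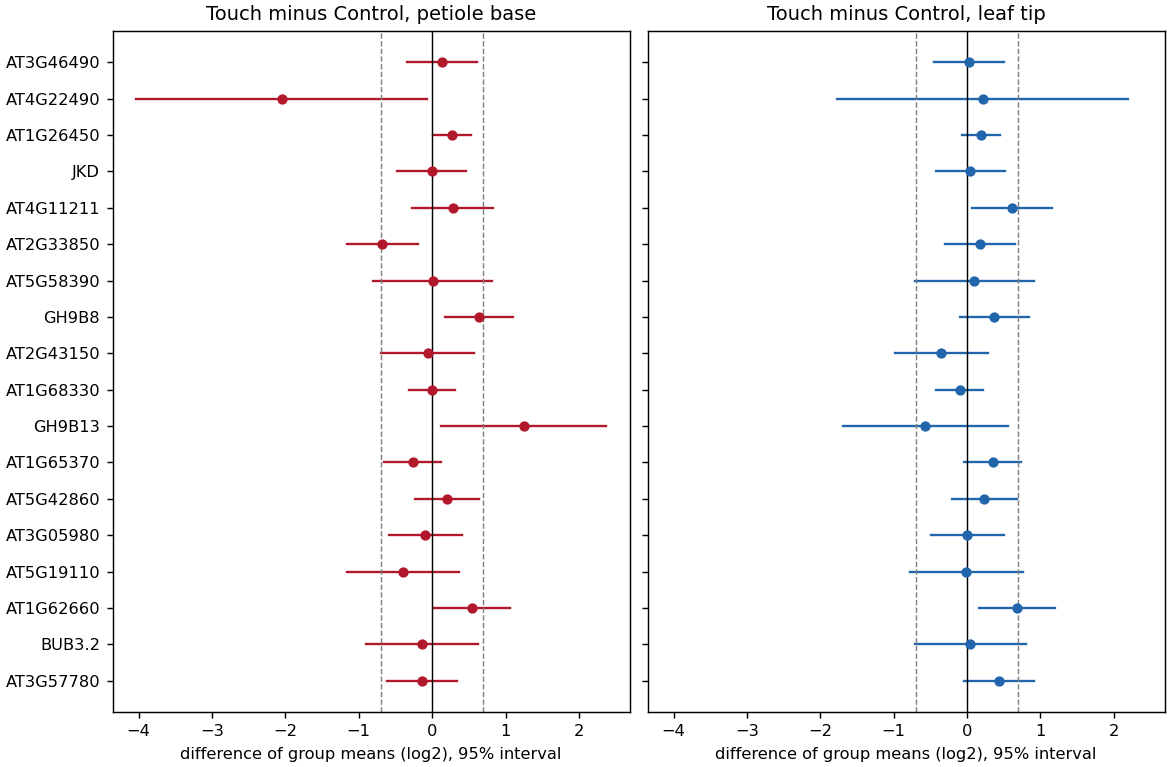
Touch minus Control in the petiole base and in the leaf tip for the 18 genes (difference of group means, log2), with 95% intervals and the selection window of 0.7 dashed. In the base AT4G22490 at -2.05 and GH9B13 at 1.25 lie outside the window, and in the tip every mean lies inside it.

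With 3 arrays a group the standard error of a difference between group means ran from 0.13 for AT1G26450 to 0.95 for AT4G22490, with a median of 0.23 over the 18 and 0.17 over all. In 5 members the 95% interval of a difference was wider than the window on either side: 1.98 for AT4G22490, 1.12 for GH9B13, 0.81 for AT5G58390, 0.77 for AT5G19110 and 0.76 for BUB3.2. For these genes a mean within 0.7 of Control does not bound the change to 0.7. Nor does it in other members where the mean and its interval together pass 0.7. Under Whole FR in the base, JKD was at 0.69 and AT3G57780 at -0.65, each with 0.47 on either side.

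Membership was repeated with each of the 18 arrays used by the rule left out in turn. AT1G26450, AT1G65370, AT1G68330, AT3G05980, AT3G46490, AT4G11211, AT5G42860 and GH9B8 stayed members in all 18 repeats, and the other 10 dropped out at least once. AT4G22490 dropped out in 8 of the 18. BUB3.2, AT3G57780 and AT5G58390 each dropped out in 3. Without Control petiole base replicate 3, 12 of the 18 remained.

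The glycosyl hydrolase 9 family was examined after its members had been seen among the 18. Of 19 measured genes with a GH9 symbol, the other 17 differed between Control base and tip by -0.91 to 1.25, with a median of -0.32. Family genes with other symbols were not looked up. GH9B7 at 1.13, GH9C2 at 1.08 and GH9C3 at 1.25 were called higher in the Control base, as were 15.2% of all probe sets. In 11 of the 17 the Control signal was under 2 in both tissues. In Touch plants GH9C2 differed by 1.20 and GH9B7 by 0.92, both called, and GH9C3 by 0.33, not called. Among the 19, GH9B8 and GH9B13 alone differed by more than 3 in Control and in Touch plants. Under Whole FR GH9C3 differed by 3.66, with a base mean 2.36 above Control.

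**Figure D4:**
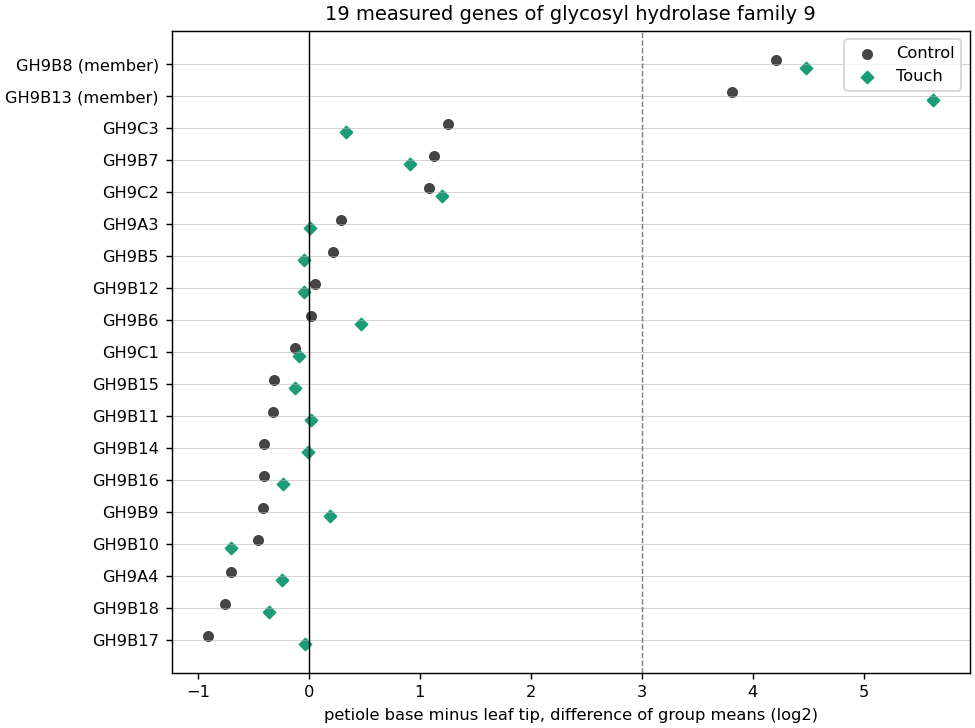
Petiole base minus leaf tip for the 19 measured genes of glycosyl hydrolase family 9 with a GH9 symbol (difference of group means, log2), in Control and in Touch plants. GH9B8 at 4.21 and 4.48 and GH9B13 at 3.81 and 5.63 stand apart from the others, whose Control values lie between -0.91 and 1.25.

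BUB3.2 was likewise set beside 5 other measured genes with a BUB or AUR (Aurora kinase) symbol, chosen after the members were known. Spindle checkpoint genes with other symbols were not looked up. In Control plants all 5 were called higher in the base, AUR1 by 2.74, BUBR1 by 2.43, AUR3 by 1.89, AUR2 by 1.81 and BUB3.1 by 1.42, beside 3.22 for BUB3.2. In Touch plants BUB3.2 was called at 3.03, as were AUR1 at 2.15, BUBR1 at 1.48 and AUR3 at 1.08, while AUR2 at 0.78 and BUB3.1 at 0.36 were not. Touch minus Control in the base was -0.14 for BUB3.2, and for the other 5 it ran from -0.80 (BUB3.1) to -1.06 (BUBR1), with none called. Without Control petiole base replicate 2 all 5 were called lower in Touch, from -1.06 (BUB3.1) to -1.58 (AUR2), and BUB3.2 was not called. That omission raised the calls among all 17504 probe sets from 37 to 483. Leaving out Control petiole base replicate 1 or 3 gave 8 or 2. None of the 5 was called in any other setting. The difference between BUB3.2 and the other genes was not tested.

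The stomatal lineage gene SPCH moved the same way in the base, reading 6.04, 3.46 and 6.84 in Control and 2.99, 2.89 and 3.01 in Touch, a difference of -2.48 (adjusted p = 0.0799 by limma). Of the stomatal list 3 of 9 genes were measured. FMA, a gene of late guard cell formation, differed by -1.26 between Control base and tip. Touch minus Control in the base was 0.63 for FMA, higher on every Touch array, and -0.07 for MUTE. The lower Touch value of SPCH was thus not shared by the other measured genes of its list. Of 20 genes on the mitosis and DNA replication list, 2 were measured: AUR1 read 5.87, 5.50 and 6.84 in the Control base and 5.12, 5.12 and 5.20 in the Touch base, and AUR2 read 3.68, 2.13 and 4.66 in Control and 2.10, 2.82 and 2.85 in Touch. Control petiole base replicate 2 was the lowest Control base array for SPCH, AUR1, AUR2 and AT4G22490. It was not the lowest for BUB3.2, GH9B13 or FMA, and its share among all probe sets was not counted. The part of dividing or stomatal lineage cells in the AT4G22490 values was not tested.

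In the gene order of the TAIR10.1 assembly, 16 members had a measured neighbour directly beside them, 23 probe sets in all. Their median Control base minus tip difference was -0.02, and 20 of the 23 differed by less than 1. No members were adjacent to each other. The other 3 were AT5G19100, beside AT5G19110, at 2.17, AT4G11210, beside AT4G11211, at -1.03, and AT4G22485, beside AT4G22490, at 6.69.

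AT4G22485 was the adjacent gene that differed by more than 3. It read 8.63, 4.97 and 10.58 in the Control base and 5.08, 1.18 and 5.30 in the Touch base, a difference of -4.21 (SE 1.07, adjusted p = 0.0959 by limma). AT4G22490 had the same array order in both groups, with 7.21, 4.87 and 9.15 in Control and 6.41, 2.11 and 6.55 in Touch. AT4G22505, which lies 2 genes away, was 2.78 higher in the Control base and differed by -2.28 between Touch and Control there. Replicate 2 was the lowest base array in every treatment for all 3 genes. Without Control petiole base replicate 2, Touch minus Control was -5.75 for AT4G22485 and -3.19 for AT4G22505, both called by limma, with adjusted p-values of 0.00314 and 0.0297. In that setting 483 of 17504 probe sets were called, against 37 with all arrays, and AT4G22490 was not among them. No other setting called either neighbour in this comparison.

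**Figure D5:**
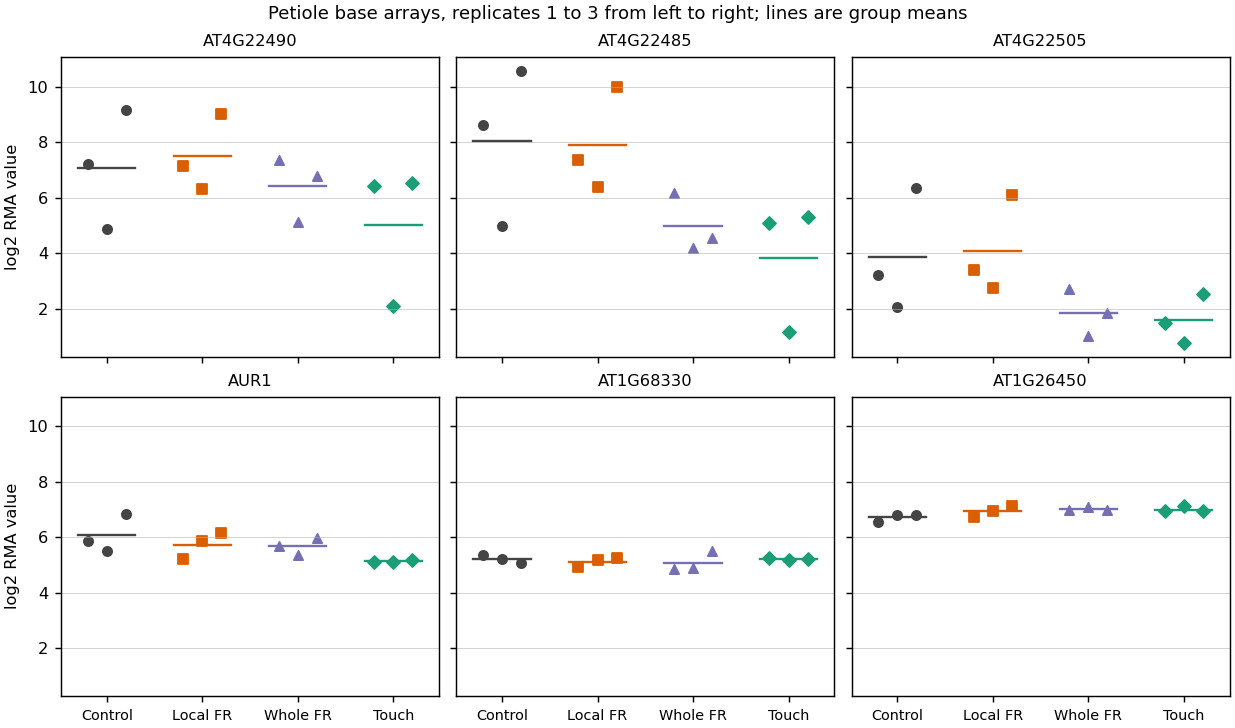
Log2 RMA values on the 12 petiole base arrays for AT4G22490, its neighbours AT4G22485 and AT4G22505, the mitotic kinase gene AUR1, and the narrow members AT1G68330 and AT1G26450, with lines at group means. The 3 neighbouring genes spread over several log2 units within a group, while the 12 arrays of AT1G68330 stay between 4.86 and 5.50.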

How the data were processed

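The deposited values are log2 expression values from the authors' RMA summary in Expression Console at the core gene level, per the labels (the log2 scale was read from the values, which run from -0.479 to 13.359). They were used as deposited, with no further normalization or filter. Of 38408 probe sets, 17504 have a gene in the platform annotation, 16746 of them a single gene and 758 several, and 20904 are not listed there. Symbols were updated through RefSeq's gene table for TAIR10.1, which held 16601 of the single-gene probe sets. Scanner files, probe signals and sequences were not analysed here.

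A model with 1 mean for each of the 8 groups was fitted to all 24 arrays with limma 3.58.1 in R 4.3.3 (lmFit, eBayes), two-sided, with Benjamini-Hochberg adjustment over 17504 probe sets and a threshold of 0.05. On simulated data with 17504 probe sets, the Touch base against tip comparison recovered 82% of probe sets changed by 1 log2 unit and 100% of those changed by 2. For Touch minus Control in the base it was 48% at 0.7, 86% at 1 and 98% at 2. The 50 changed probe sets of each size were drawn at random with independent noise, and all sizes were planted together. For Touch minus Control in the base the data gave 37 calls, fewer than the simulation, so the adjusted cutoff was stricter in the data. The members also had a larger median SE, 0.23 against 0.17 over all. The rates may therefore overstate recovery among the members in that comparison. They do not apply to members of wide spread such as AT4G22490. The number of arrays limits the precision.

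The members and gene lists were chosen with earlier results of these data known. All 18 members are named, with the 3 genes nearest outside each edge of the rule; the markers, relatives by symbol and neighbours that are named were picked after their values were seen. Per the labels both pieces were cut from a single leaf, without saying that replicate numbers mark shared plants. Same-numbered arrays deviated from their group means with correlations of 0.02, 0.07 and 0.10 between Touch tissues and 0.00 to 0.23 between Touch and Control. Correlations between differently numbered arrays were not computed, so these values do not settle whether the numbers mark shared batches. Some genes, among them AT4G22490, had the same lowest replicate in the base in every treatment. The main model did not pair samples by number. Alternatives were other thresholds, medians, cyclic loess, limma settings, a filter on dim probe sets, all probe sets, a replicate block and leaving out each array.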

Additional observations from a re-analysis of the deposited data

Results flagged for a closer look

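In 3 of the 18 genes every treated array lay on one side of the Control mean in the petiole base and on the opposite side in the leaf tip under at least 1 treatment, beside 23.7% of all 17504 probe sets with a gene. By treatment it was seen in 1 member under Local FR, 2 under Whole FR and 1 under Touch, against 7.45%, 11.5% and 9.19% of all. AT1G62660 under Whole FR was 0.19 above Control in the base and -0.61 in the tip. AT2G33850 was at -0.41 in the base and 0.12 in the tip under Local FR, and at -0.58 and 0.22 under Whole FR. These far-red differences lie inside the selection window, and the difference between tissues was not tested. AT1G65370 under Touch was at -0.27 in the base and 0.35 in the tip, and the difference between these, -0.61 (SE 0.26), had an adjusted p of 0.532 by limma.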

How the results depend on the processing

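The number of members was 18 by the rule, 15 and 25 with tissue thresholds of 3.5 and 2.5, 11 and 32 with treatment windows of 0.5 and 1, 20 from medians, 19 after cyclic loess, and 15 to 20 with each array left out. For Touch base minus tip, 4281 probe sets were called, 8000 when all 38408 were tested, 4500 with the replicate block, and 3644 to 3872 with each array left out; 18 members were called in every setting except without Touch petiole base replicate 3. For Touch minus Control in the base, 37 were called, 62 with the replicate block, 85 with trend and robust settings, 0 with only the groups compared, and 0 to 483 with an array left out (0 without Touch petiole base replicate 2, 483 without Control petiole base replicate 2). In the tip 43 were called, 0 with only the groups compared, and 16 to 53 with an array left out. For the difference in Touch effect 0 were called, 3 with trend and robust settings, and 0 to 21 with an array left out. No member was called in these Touch against Control comparisons under any setting. The causes were not tested. Signals near the low end of the scale limit differences for the members with dim tip values.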

Other observations

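Among 20904 probe sets that the platform annotation does not list, 16 met the numbers of the selection rule. In Touch plants their petiole base exceeded the leaf tip by 2.84 to 6.62, with a median of 4.11, and 14 of the 16 differed by at least 3. Touch minus Control lay within 0.7 for 15 of the 16 in the base and for 15 in the tip. Of the unlisted probe sets 90 met the tissue condition. The share of all unlisted probe sets with such Touch values was not counted. The 16 are given no gene name here.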
